A study of Mus musculus with 14 samples.

Results

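The 7 genes described here make up the core of the MHC class II presentation pathway in the mouse: H2-Aa, H2-Ab1, H2-Eb1, Cd74, Ciita, H2-DMa and H2-DMb1. They were chosen by symbol, and they take 8 of the 37680 rows of the gene count table, because Ciita has a second row for a short model that lies inside one of its introns. All 8 rows passed the filter on low counts. The study measured polyadenylated RNA from the colon epithelium of adult mice of a C57/BL6 enriched background by bulk RNA-seq, to compare wild-type (WT) epithelium with epithelium lacking Smad4, the shared signalling partner of the BMP and TGF-beta receptors' SMAD proteins, before and after colitis induced by dextran sulphate sodium (DSS). WT mice on water (n = 4) and Smad4 KO mice on water (n = 4) were untreated, whereas WT DSS (n = 3) and Smad4 KO DSS (n = 3) mice drank 2.5% DSS for 3 days. Smad4 was deleted in KO mice with tamoxifen-induced Villin-Cre, which acts in the intestinal epithelium, and the labels call the controls wildtype without saying whether these carried Cre or received tamoxifen. The epithelium was released from the whole colon with EDTA, so immune cells that come away with the crypts are part of each library.

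MHC class II molecules are pairs of an alpha and a beta chain that show peptides from outside the cell to CD4 T cells. Cd74, the invariant chain, holds new pairs together and fills their groove, and the H2-DM pair then helps to exchange its remnant for a peptide. Ciita is the transactivator that class II promoters depend on, and it is induced by interferon gamma in cells that are not professional antigen-presenting cells, the gut epithelium among them.

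Class II promoters share an X box, bound by the RFX complex, and a Y box, bound by NF-Y, which together recruit Ciita. RefSeq windows (GRCm38.p6) covered 4 of the 7 genes and H2-DMb2, and 120 bases before the annotated start are shown for the 3 members with a match within these bases and for H2-DMb2, whose counts matter below. Capitals mark matches, on either strand, to AGNNACNGA (X box) or ATTGG (Y box).
H2-Eb1, chr17:34305747-34305866, plus strand: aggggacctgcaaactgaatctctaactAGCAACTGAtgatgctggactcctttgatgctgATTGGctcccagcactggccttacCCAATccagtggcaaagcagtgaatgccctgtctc
H2-DMb1, chr17:34153071-34153190, plus strand: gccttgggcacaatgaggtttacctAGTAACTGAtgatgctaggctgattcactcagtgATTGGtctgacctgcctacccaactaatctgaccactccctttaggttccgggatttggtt
H2-DMb2, chr17:34145129-34145248, plus strand: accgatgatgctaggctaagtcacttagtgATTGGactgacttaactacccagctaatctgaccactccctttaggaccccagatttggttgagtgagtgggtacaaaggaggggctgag
H2-Aa, chr17:34287824-34287943, minus strand: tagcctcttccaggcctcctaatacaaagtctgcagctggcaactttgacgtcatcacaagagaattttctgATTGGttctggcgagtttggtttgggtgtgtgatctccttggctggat
H2-Eb1 and H2-DMb1 held both letter patterns, with 33 and 34 bases between the first letters of X and Y. An X box followed by a Y box at 25 to 45 bases on one strand was present in 72 of 32851 promoter windows of 250 bases (0.219%), against 14.7% for the X letters alone and 33.8% for the Y letters alone. H2-Aa and H2-DMb2 held the Y letters only, and of the pair of H2-DMa windows one held the Y letters, farther from the start than these bases, and the other held neither pattern. The search took exact letters, so a box that departs from them would be missed, and a window without a match may still hold one.

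The libraries held 12882827 to 26087231 counts, and mitochondrial genes took 4.05% to 32.8% of them, with the highest shares in WT water replicates 3 and 4 and KO water replicate 4. Smad4 had 621 to 1137 counts in 6 of the 7 libraries labelled KO and 1108 to 4144 in the 7 labelled WT. The library labelled Smad4 KO water replicate 1 had 3593 Smad4 counts, a WT level, so its label went against the targeted gene, and values that rest on the libraries labelled KO water are also given without it. The study's figure legends give 3 replicates for Smad4 KO on water, without saying which of the 4 libraries these were. Epithelial markers were high in every library (Epcam 11398 to 50735 counts). The libraries carry 5 different letter prefixes in their names, whose meaning the labels do not give, and prefix D is shared by libraries of WT water, WT DSS and KO DSS. Nothing in the labels says that the replicates were separate animals, so the p-values measure the spread between these libraries.

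Of the 14 libraries, 5 stood apart at H2-DMb2, the paralog that lies next to H2-DMb1 and encodes the same kind of DM beta chain. H2-DMb2 had 447 counts in WT water replicate 2, 164 in the library labelled KO water replicate 3, 125 in WT DSS replicate 1, and 210 and 110 in KO DSS replicates 2 and 3, against 0 to 27 in the other 9. Taken as a percent of the Cd74 count of the same library, H2-DMb1 was at 1.17% in WT water replicate 2 and at 2.9% to 3.62% in the other 4 of these libraries, against 3.82% to 6.51% in the 9. H2-Aa was at 8.45% to 15.6% of Cd74 in the 5 and at 17.8% to 34% in the 9. The same split held for H2-Ab1, which was at 6.2% to 15% in the 5 and 19% to 29% in the 9. Thus H2-Aa, H2-Ab1 and H2-DMb1 were lowest relative to Cd74 in the 5 libraries that were high in H2-DMb2, and each of the 4 groups contains at least 1 of them. The split was drawn after the counts were seen. WT water replicate 4, the library with the fewest counts in all, lay nearest to the 5 in H2-DMb2, with 27 counts. Scaled for depth (CPM, defined below) it was at 2.89, between the 5 (5.58 to 19.8) and the remaining libraries (0 to 0.421). The split therefore does not place this library cleanly, and the fit below that leaves out the 5 keeps it. This library also had the lowest H2-Ab1 (19%) and H2-DMb1 (3.82%) of the 9. H2-Eb1 and H2-DMa did not show this split: they ran from 11.8% to 19.5% and from 3.28% to 4.61% of Cd74 over all 14 libraries, with overlapping ranges in the 5 and the 9. H2-DMb2 made up 54.2% of the H2-DMb1 and H2-DMb2 counts in WT water replicate 2 and 9.33% to 18.8% in the other 4, against 0% to 7.36% in the 9.

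**Figure D1:**
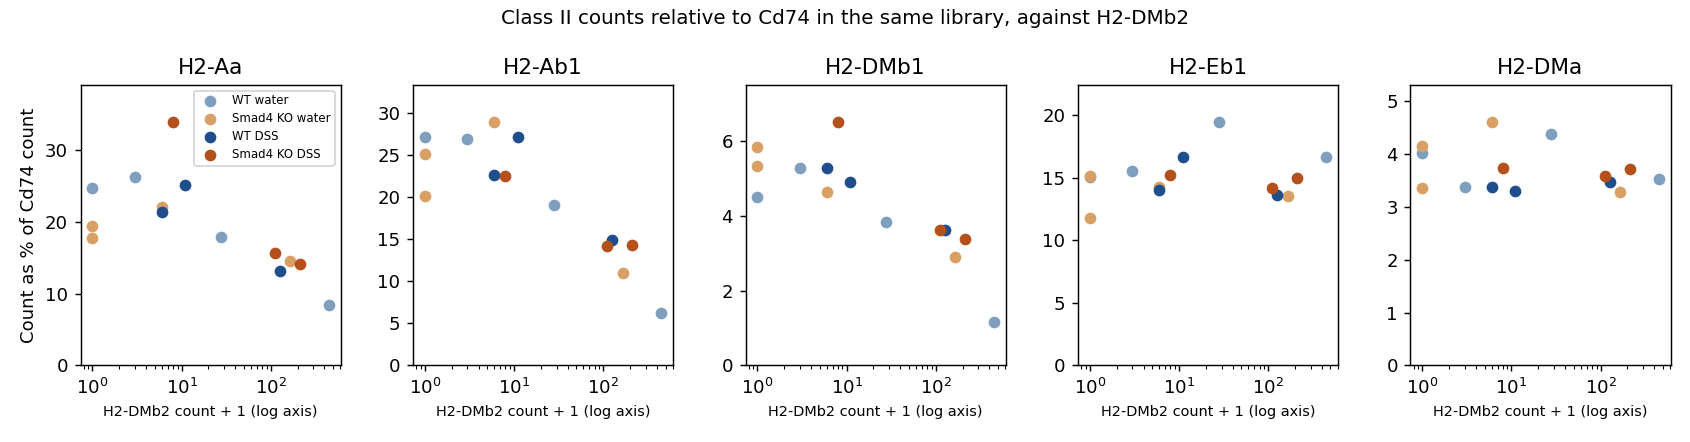
Each point is a library (colour, group), with its H2-DMb2 count plus 1 on a log x axis and, on the y axis, the count of the gene named above the panel as a percent of the Cd74 count in that library. H2-Aa, H2-Ab1 and H2-DMb1 were lowest at the right, in the 5 libraries with 110 to 447 H2-DMb2 counts, whereas H2-Eb1 and H2-DMa stayed within 11.8% to 19.5% and 3.28% to 4.61%.

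Genes inside and outside the H2 region differed along with H2-DMb2. The highest correlations with it over the 14 libraries were those of pseudogenes on other chromosomes, Gm13443 (chromosome 2, 0.94) and Gm11361 (chromosome 13, 0.92). WT water replicate 4 had 1855 counts of Gm11361, against 1225 to 6090 in the 5 libraries and 73 to 223 in the remaining ones. Of Gm13443 it had 56 counts, against 135 to 320 in the 5 and 3 to 13 in the remaining ones. The class I gene H2-Q2 (chr17:35457350-35462044, mm9) followed at 0.89, and it was singled out after its values were seen. It had 1150 to 4212 counts in the 5 libraries and 191 to 669 in the other 9, not scaled for depth. The 669 counts were in WT water replicate 4, the library with the fewest counts in all. With the TMM scaling used for CPM below, that library lies above some of the 5, so the ranges overlap. The span between the first and the last H2 gene of chromosome 17 (34075766 to 37620497, mm9) holds 0.952% of the genes tested. Ranked by absolute correlation with H2-DMb2 over the 14 libraries, 1 of the first 10 genes, 2 of the first 20 and 5 of the first 50 lay there. The libraries are shared by all these genes. The H2-DMb1 and H2-DMb2 transcripts are 87.7% identical over 1144 aligned positions, and 26.8% of the 50-base windows of H2-DMb1, and 5.77% of those of 150 bases, the length of the reads, occur unchanged in H2-DMb2, so some reads may be placed on either paralog. H2 genes are highly polymorphic between mouse strains, and the reads were aligned to mm9, a C57BL/6 genome. Whether these 5 libraries differ in H2 haplotype, in alignment or in transcription was not tested, and values of H2-Aa, H2-Ab1 and H2-DMb1 are therefore given beside those of Cd74, H2-Eb1, H2-DMa and Ciita.

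Across all 14 libraries the members formed a set whose levels moved together. Cd74, H2-Eb1 and H2-DMa had pairwise Pearson correlations of 0.97 to 0.98 on log2 CPM (counts per 1000000 of the library total scaled by TMM factors). H2-Aa, H2-Ab1 and H2-DMb1 formed a second tight trio at 0.94 to 0.96, and between the trios the values were 0.66 to 0.84. Ciita stood further off, at 0.44 to 0.70 with the other 6. These are descriptions over 14 libraries that share their depth and composition.

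Per kilobase of exon, Cd74 was the most abundant member in all 4 groups and Ciita the least abundant. In WT water, Cd74 was at 999.8 ± 257.6 CPM per kb (SD, n = 4), H2-Eb1 at 194 ± 35.8, H2-Ab1 at 175 ± 113 and H2-Aa at 142 ± 84. The 3 chain genes did not differ from one another beyond their spread. H2-DMb1 at 36.1 ± 23.6 and H2-DMa at 32.1 ± 5.35 CPM per kb likewise differed by less than their spread, and Ciita was at 2.21 ± 0.723. H2-Aa, H2-Ab1, H2-Eb1 and Cd74 together took 0.072% to 0.564% of all counts of a library.

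The chain genes are described first, and among them H2-Eb1, the beta chain of I-E in mice that express it. H2-Eb1 (chr17:34442828-34453144, mm9) was at 286, 238, 214 and 186 CPM in WT water and at 137, 51.1, 156 and 235 in the libraries labelled KO water. After DSS it was at 211, 259 and 529 CPM in WT and at 195, 199 and 172 in KO. Every KO DSS library was below every WT DSS library, and the other groups overlapped. Its alpha-chain partner H2-Ea, which mice of the b haplotype do not express, had 0 counts in all 14 libraries as H2-Ea-ps. A count of 0 allows up to 3 counts per library, for counting error only.

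H2-Aa and H2-Ab1 encode the alpha and beta chains of I-A. Their rows (chr17:34406276-34424772 and chr17:34400154-34406363, mm9) overlap by 17 exonic bases on opposite strands, a small part of either. H2-Ab1 was at 495, 88.4, 385 and 181 CPM in WT water, at 228, 87.3, 127 and 478 in the libraries labelled KO water, at 231, 416 and 864 in WT DSS and at 289.7, 191 and 172 in KO DSS. WT water replicate 2 and the library labelled KO water replicate 2 were lowest, and WT DSS replicate 3 was highest. H2-Aa ran alongside, at 483, 121, 352 and 171 CPM in WT water, 176, 76.9, 168 and 364 in those labelled KO water, 202, 394 and 797 in WT DSS and 437, 187 and 189 in KO DSS. The groups overlapped in every comparison of either gene, and within a group the highest library was 1.69 to 5.6 times the lowest.

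**Figure D2:**
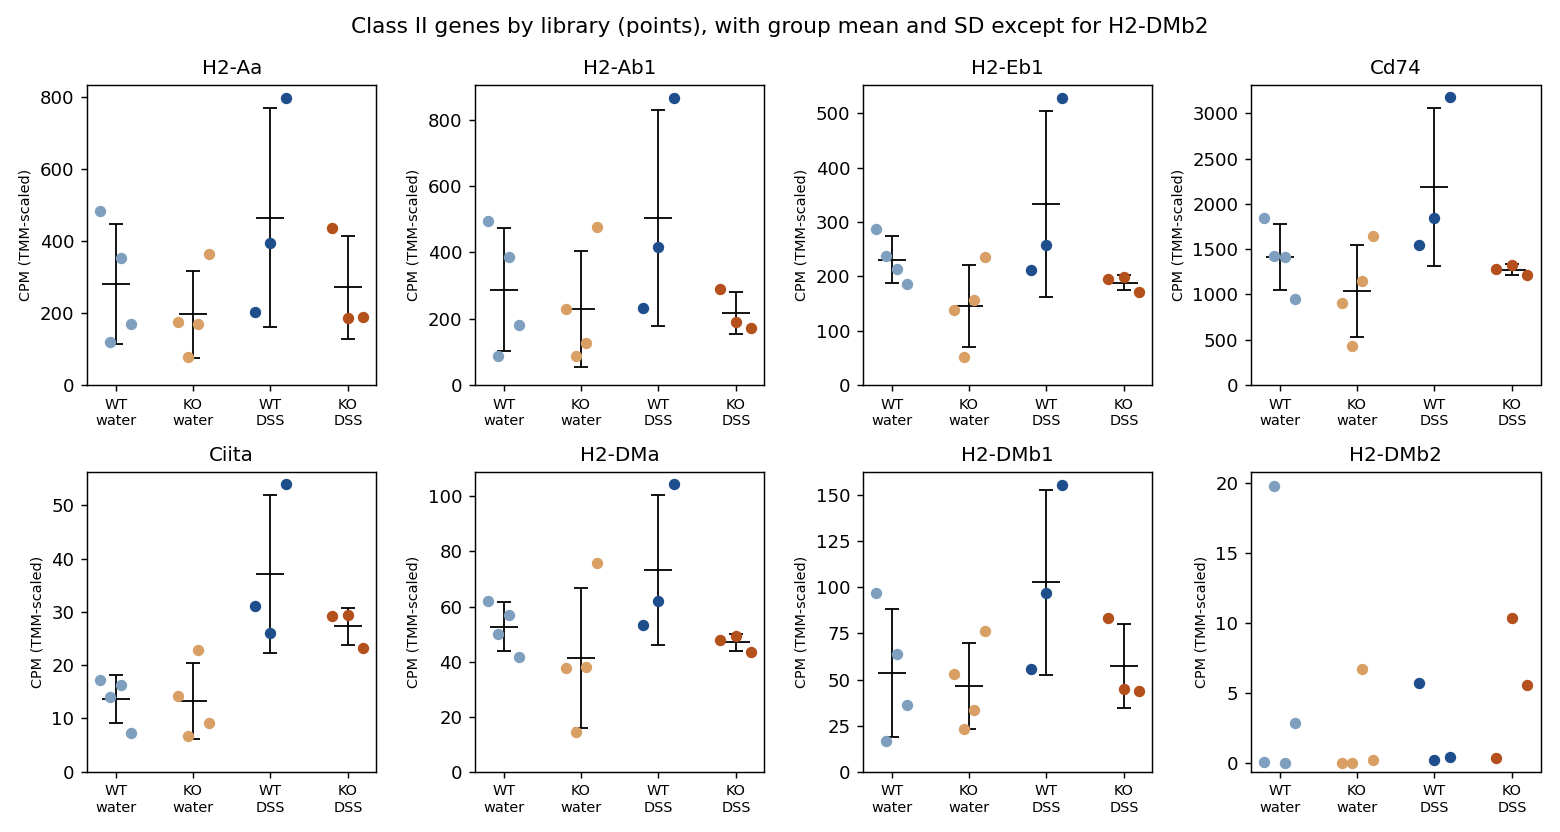
CPM (TMM-scaled, y axis from 0) of the 7 genes and of H2-DMb2 in each library (points) of the 4 groups, with the group mean and SD as bars except for H2-DMb2. WT DSS replicate 3 is the highest point for each of the 7 genes, and the KO DSS points of Cd74, H2-Eb1 and H2-DMa lie below all WT DSS points.

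Cd74, the invariant chain, had the largest counts of the set. It was at 1841, 1427, 1418 and 952 CPM in WT water and at 907, 433, 1154 and 1646 in the libraries labelled KO water. After DSS it reached 1545, 1841 and 3175 CPM in WT and 1285, 1329 and 1211 in KO. The KO DSS libraries lay within 1.1 times of each other and below all 3 WT DSS libraries, whereas on water both genotypes spread widely, by 1.93 times in WT and 3.8 times in KO. The library labelled KO water replicate 1, with its WT level of Smad4, lay inside the range of the other libraries labelled KO water for each of the chain genes and Cd74.

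The DM genes act on the loaded pairs in the endosome. H2-DMa (chr17:34272127-34276046, mm9) was at 61.9, 50.2, 57 and 41.7 CPM in WT water, at 37.6, 14.5, 37.9 and 75.9 in the libraries labelled KO water, at 53.4, 62.1 and 104 in WT DSS and at 48, 49.4 and 43.4 in KO DSS. As for Cd74, no KO DSS library reached the lowest WT DSS library. H2-DMb1 (chr17:34290017-34297168, mm9) was at 97, 16.7, 63.6 and 36.4 CPM in WT water, at 52.9, 23.1, 33.4 and 76.1 in those labelled KO water, at 55.8, 96.9 and 156 in WT DSS and at 83.6, 44.7 and 43.8 in KO DSS, and its groups overlapped throughout. The DO genes H2-Oa and H2-Ob, which restrain DM in B cells, reached no more than 7 and 14 counts in any library.

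Ciita (chr16:10480237-10527657, mm9) was the only member in which every DSS library lay above every water library of its genotype. It was at 17.2, 14.1, 16.3 and 7.27 CPM in WT water and at 14.3, 6.68, 22.9 and 9.2 in the libraries labelled KO water. After DSS it was at 31.1, 26 and 53.9 CPM in WT and at 29.2, 29.3 and 23.3 in KO. The lowest DSS value was 26 CPM in WT and 23.3 in KO, against highest water values of 17.2 and 22.9, and the WT and KO libraries overlapped both on water and after DSS. The intronic Ciita model (chr16:10489876-10492330, mm9) carried 0 to 92 counts and its group means were 1.16 to 3.16 CPM, so that few reads stand behind its values.

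DSS against water in WT asks how the epithelium responds in the first days of injury. Log2 fold changes were positive for all 8 rows; their median was 0.68, against -0.01 over all genes tested, and none passed edgeR's quasi-likelihood test at an adjusted p of 0.05. No gene at all passed in this comparison: 0 of 15127 (0%), although 3174 (21%) had an unadjusted p below 0.05, and 1 of the 8 rows, Ciita, was among these. DESeq2 called 698 genes (4.61%), Ciita included. Ciita had the largest value, a log2 fold change of 1.42 ± 0.36 (SE; edgeR adjusted p = 0.122), with a mean of 37 ± 14.8 CPM (SD, n = 3) after DSS and 13.7 ± 4.49 (n = 4) on water. It was 1 of 1943 genes (12.8%) with every WT DSS library above every WT water library. H2-DMb1 followed at 0.94 ± 0.49, then H2-Ab1 at 0.81 ± 0.58, H2-Aa at 0.72 ± 0.54, Cd74 at 0.63 ± 0.35, H2-Eb1 at 0.53 ± 0.37 and H2-DMa at 0.47 ± 0.36. Much of this rested on WT DSS replicate 3: without it the edgeR value was 1.05 for Ciita (adjusted p = 0.338), 0.26 for Cd74, 0.17 for H2-Ab1, 0.08 for H2-Aa and 0.02 for H2-Eb1. That library is also the only one with the prefix ZH, and within prefix D the values were 0.87 ± 0.17 for Ciita (adjusted p = 0.0636), 0.05 for Cd74 and -0.16 for H2-Eb1.

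DSS against water in KO gave a smaller set of values. Of the 8 rows, 7 were positive and 1 negative, their median was 0.34 on the log2 scale against -0.02 over all genes, and edgeR called 0 rows (1 with an unadjusted p below 0.05, as had 8.4% of all genes), beside 10 of 15127 genes (0.0661%). DESeq2 also called 0 rows, beside 0.443% of genes. Ciita was again highest at 1.03 ± 0.36 (adjusted p = 0.481), with a mean of 27.3 ± 3.45 CPM (n = 3) after DSS and 13.3 ± 7.17 (n = 4) on water. It was 1 of 696 genes (4.6%) with every KO DSS library above every library labelled KO water. Cd74 was at 0.30 ± 0.35, H2-Eb1 at 0.38 ± 0.37 and H2-Ab1 at -0.08 ± 0.59. Without the library labelled KO water replicate 1, Ciita was at 1.07, H2-Aa at 0.42, H2-DMb1 at 0.38, H2-Eb1 at 0.36, Cd74 at 0.24, H2-DMa at 0.13 and H2-Ab1 at -0.08. No KO water library has the prefix D of the KO DSS libraries, so no prefix gives a value for this comparison. When prefix was blocked in the edgeR fit, so that its effect was estimated through libraries of other groups, Ciita was at 1.05 (adjusted p = 0.377), H2-Eb1 at 0.09 and Cd74 at -0.03 (adjusted p = 0.993).

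**Figure D3:**
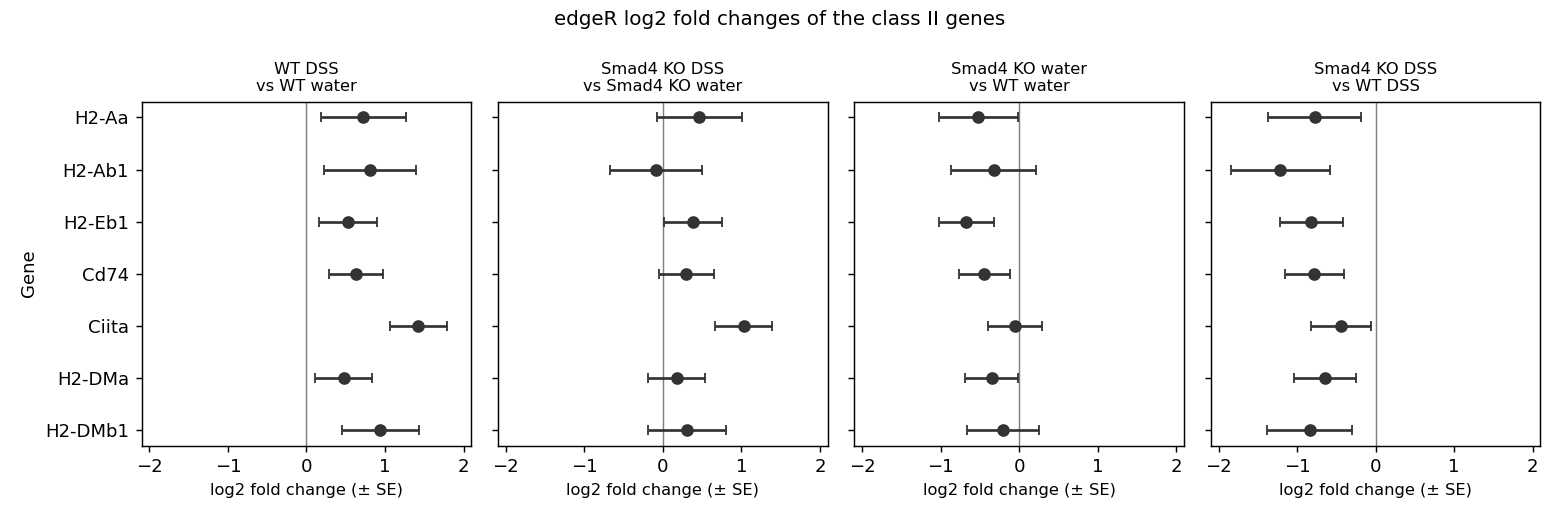
Log2 fold changes of the 7 genes (points, with the SE as bars) in the edgeR fit for the 4 comparisons, on a common x axis. Ciita stood at 1.42 and 1.03 in the comparisons of DSS with water, and all 7 genes were below 0 in both comparisons of KO with WT.

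KO against WT after DSS compares class II levels between the genotypes in injured epithelium. All 8 rows were negative (median -0.78 on the log2 scale, against -0.00058 over all genes), and edgeR called 0 of them (0 with an unadjusted p below 0.05), beside 2 of 15127 genes (0.0132%). DESeq2 also called 0 of them, beside 0.324% of genes. H2-Ab1 was at -1.21 ± 0.63, H2-DMb1 at -0.84 ± 0.54, H2-Eb1 at -0.82 ± 0.40, Cd74 at -0.78 ± 0.37, H2-Aa at -0.78 ± 0.59, H2-DMa at -0.64 ± 0.39 and Ciita at -0.44 ± 0.39, each with an adjusted p of 0.999. The mean of Cd74 was 1275 ± 59.7 CPM in KO DSS and 2187 ± 869 in WT DSS (SD, n = 3 each), a ratio of 0.583. Cd74, H2-Eb1 and H2-DMa had every KO library below every WT library, as did 1722 of all genes (11.4%). The values depended on WT DSS replicate 3: without it Cd74 was at -0.41, H2-Eb1 at -0.31, H2-DMa at -0.30, H2-Ab1 at -0.57, H2-Aa at -0.14 and Ciita at -0.07. Fitted within prefix D alone, with WT DSS replicates 1 and 2, Cd74 was at -0.41 ± 0.15 (edgeR adjusted p = 0.335) and H2-Eb1 at -0.32 ± 0.14 (adjusted p = 0.397). The sign stayed negative for each of the 8 rows under all 26 alternatives that could be fitted. These alternatives reuse the same DSS libraries, and leaving out a water library hardly touches this comparison. Cd74, for example, stayed at -0.78 without the library labelled KO water replicate 1 and without KO water replicate 4. The shared sign is therefore not separate support, and the difference was not detectable with these libraries.

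KO against WT on water gave values of the same sign. All 8 rows were negative, their median was -0.40 on the log2 scale against -0.01 over all genes, and edgeR called 0 rows (0 with an unadjusted p below 0.05, as had 29.3% of all genes), in a comparison in which it called 1276 of 15127 genes (8.44%). DESeq2 also called 0 rows, beside 17.1% of genes. H2-Eb1 was at -0.67 ± 0.35 (edgeR adjusted p = 0.207), Cd74 at -0.45 ± 0.32 and Ciita at -0.05 ± 0.34. The mean of H2-Eb1 was 145 ± 75.5 CPM in the libraries labelled KO water and 231 ± 42.6 in WT water (n = 4 each). Without the library labelled KO water replicate 1, H2-Eb1 was at -0.65 (adjusted p = 0.287), H2-Aa at -0.47, Cd74 at -0.39, H2-Ab1 at -0.32, H2-DMa at -0.30, H2-DMb1 at -0.28, Ciita at -0.09 and the intronic model at -0.93. KO water replicate 4 had the highest level of that group for each row except that of the full Ciita gene. Its Ciita was at 9.2 CPM, below replicates 1 and 3 (14.3 and 22.9). Without KO water replicate 4, edgeR called H2-Eb1 (-0.995, adjusted p = 0.041) and the intronic Ciita model (-1.76, adjusted p = 0.0446). That fit called 4104 genes in all, the most under any alternative for this comparison. Cd74 was at -0.75 (adjusted p = 0.0861) and Ciita at 0.10 without that library. That library also had the highest B and plasma cell sum of all 14, among the markers described below. It had the highest T cell and innate lymphoid sum of all 14 as well. Its macrophage and dendritic cell sum was the highest of its group, at 32.9 CPM, but below that of WT DSS replicate 3 (34.1). Its mitochondrial share was 21.4%. The part of these in the calls was not tested.

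The difference between the DSS responses of KO and WT was tested as an interaction. Its values were -0.89 ± 0.83 for H2-Ab1, -0.64 ± 0.71 for H2-DMb1, -0.39 ± 0.52 for Ciita, -0.33 ± 0.49 for Cd74, -0.30 ± 0.51 for H2-DMa, -0.26 ± 0.77 for H2-Aa and -0.14 ± 0.53 for H2-Eb1, and 0.51 ± 0.93 for the intronic model. edgeR called 0 of the 8 rows (0 with an unadjusted p below 0.05), beside 1 of 15127 genes (0.00661%). DESeq2 also called 0 of them, beside 0.0529% of genes. The comparisons of DSS in WT and of KO with WT after DSS share the WT DSS libraries, and those on water share theirs, so their values are not independent of each other. With the 5 libraries high in H2-DMb2 left out, which leaves 1 KO DSS library that is assumed to vary like the other groups, edgeR still called 0 rows in any comparison: Ciita was at 1.56 in WT with DSS (adjusted p = 0.302), and Cd74 was at -0.96 in KO against WT after DSS.

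The genes upstream of class II were measured in the same libraries. Of the interferon gamma axis, 7 of 8 genes were tested (Ifng itself had 0 to 5 counts). With DSS in WT all 7 had positive values (median 0.48 on the log2 scale), 5 had an unadjusted p below 0.05, beside 21% of all genes, and edgeR called none. DESeq2 called 2 of the 7, both higher after DSS, beside 4.61% of all genes; among them was the kinase Jak1 (adjusted p = 0.0486). In the edgeR fit Socs1, a feedback inhibitor of the pathway, was at 0.95 and the transcription factor Irf1 at 0.40. In KO with DSS, 6 of the 7 were positive with a median of 0.22, Socs1 at 0.98 and Irf1 at 0.50. In KO against WT after DSS the 7 had a median of 0.03, with 4 positive and 3 negative. On water DESeq2 called Jak1 (0.56, adjusted p = 0.0291) and the kinase Jak2 (0.49, adjusted p = 0.041) higher in the libraries labelled KO, beside 17.1% of all genes. edgeR called neither. Without the library labelled KO water replicate 1, neither tool called them (DESeq2 adjusted p = 0.0635 and 0.0586), in fits added after the data were seen.

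Of the class II promoter factors, all 7 were tested and edgeR called none in any comparison of all 14 libraries. For KO against WT on water 5 of the 7 had an unadjusted p below 0.05, beside 29.3% of all genes. Among these, Rfx5 (0.59) and Creb1 (0.41) were higher in the libraries labelled KO. The 7 factors had 4 positive and 3 negative values in that comparison, with an edgeR median of 0.16. For DSS in WT 3 of the 7 had an unadjusted p below 0.05, beside 21%. DESeq2 called 3 of the 7 for KO against WT on water, where it called 17.1% of all genes, all lower in the libraries labelled KO: Rfxank (-0.62), Rfxap (-0.56) and the NF-Y subunit Nfyc (-0.51). Without the library labelled KO water replicate 1, edgeR also called them: Rfxank was at -0.79 (adjusted p = 0.047), Rfxap at -0.69 (0.0498) and Nfyc at -0.59 (0.047), beside 7.66% of all genes. With DSS in WT their edgeR median was -0.03, with Rfx5 at 0.75 and Rfxap at -0.66.

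Downstream, 9 genes of antigen processing and class II turnover were tested. edgeR called 1, Sppl2a, a protease that clears the last fragment of Cd74, in KO against WT on water, where it called 8.44% of all genes. Sppl2a was higher in the libraries labelled KO by 0.95 on the log2 scale (adjusted p = 0.0232). It was also called without replicate 1 (adjusted p = 0.01), beside 7.66% of all genes. DESeq2 called it there too, beside 17.1% of all genes, and also higher with DSS in WT (0.68, adjusted p = 0.0477), beside 4.61%. The cathepsin Ctss, which trims the invariant chain, had 1081 to 5624 counts and median levels of 150 CPM per kb. Of the costimulation and adhesion genes 4 of 8 were tested; edgeR called none (2 with an unadjusted p below 0.05 for DSS in each genotype, beside 21% of all genes in WT and 8.4% in KO), and DESeq2 called Icam1 for DSS in WT (adjusted p = 0.00835). Cd80, Cd86 and Cd40, by which professional antigen-presenting cells costimulate T cells, had at most 16, 8 and 6 counts in any library. In the edgeR fit Icam1, an adhesion molecule for T cells, was at 1.49 with DSS in WT and at 1.16 in KO, with adjusted p of 0.115 and 0.426.

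Markers of other cells were low beside the members. In a bulk sample, fewer cells of a type and less RNA per cell cannot be told apart. The median level was 1.12 CPM per kb for Ptprc, the pan-leukocyte gene, 0.15 for Csf1r and 0.31 for Itgax, against 974 for Cd74, 3.23 for Ciita and 922 for Epcam. The summed level of 16 macrophage and dendritic cell markers was 14.4 to 23.8 CPM in WT water, 22 to 32.9 in the libraries labelled KO water, 20.3 to 34.1 in WT DSS and 24.1 to 25 in KO DSS, with 0 to 6 of the 16 at 0 in a library. WT DSS replicate 3, highest for the 7 genes, was also highest in this sum among all libraries, at 34.1. The sum of 11 B and plasma cell markers ran the other way, at 26.9 to 57.9 CPM in WT water and 6.16 to 10.6 in WT DSS, and at 12.2 to 85.9 in the libraries labelled KO water and 9.15 to 18.2 in KO DSS. KO water replicate 4 held the highest value of 85.9. DESeq2 called the plasma cell genes Igkc (-2.40) and Jchain (-2.22) lower with DSS in WT, and edgeR did not (adjusted p = 0.114 and 0.123). The sum of 12 T cell and innate lymphoid markers was 43.8 to 71.1, 41.4 to 84.3, 48.5 to 71.6 and 56.6 to 69.6 CPM in the same order of groups. edgeR called 1 gene of these marker lists, the mannose receptor Mrc1, in KO against WT on water, where it called 8.44% of all genes. Mrc1 was higher in the libraries labelled KO at 1.38 (adjusted p = 0.0362), from 15 to 140 counts. Without replicate 1 it was at 1.53 (adjusted p = 0.0308), and DESeq2 called it too. Among 9 epithelial markers edgeR called none, and DESeq2 called 4 in at least 1 comparison. Krt20, a keratin of differentiated surface cells, was lower in KO DSS than in WT DSS (-0.85, DESeq2 adjusted p = 0.00848; edgeR adjusted p = 0.342), the comparison in which every class II row was negative. On water DESeq2 called the adhesion gene Cdh1 higher (0.46, adjusted p = 0.00706) and the transcription factor Cdx2 lower (-0.48, adjusted p = 0.0262) in the libraries labelled KO. Without replicate 1, Cdx2 was not called (DESeq2 adjusted p = 0.0577). With DSS, Vil1 was higher in WT (0.36, DESeq2 adjusted p = 0.048) and Cdh1 lower in KO (-0.56, DESeq2 adjusted p = 0.0197). The part of such cells, and of the make-up of the epithelium, in the class II values was not tested.

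**Figure D4:**
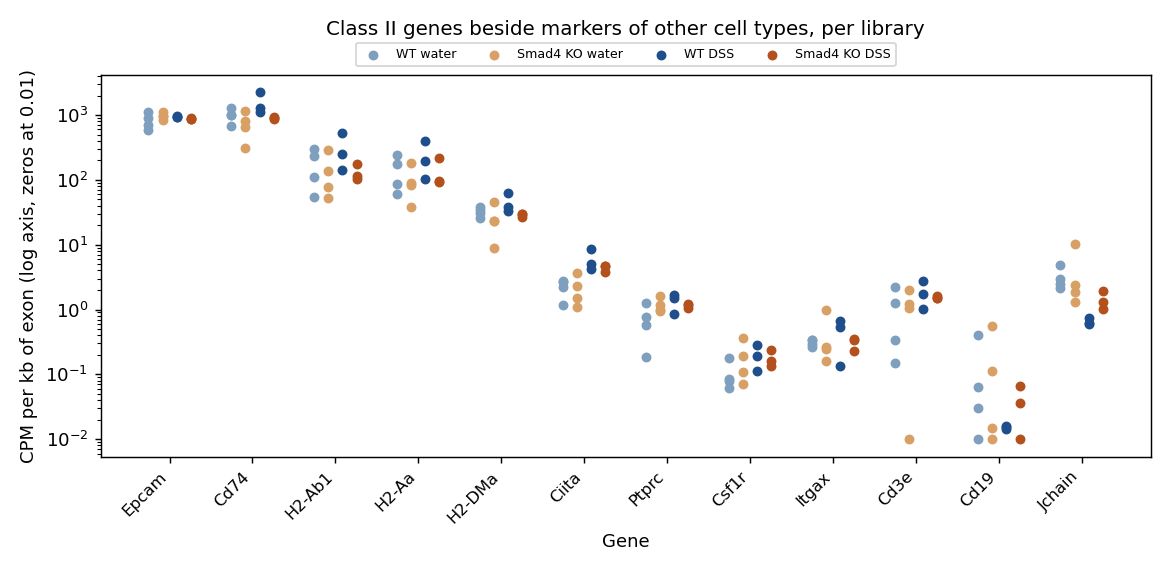
Level of 5 class II genes, the epithelial marker Epcam and markers of leukocytes in each library, as CPM per kb of exon on a log y axis, coloured by group. Cd74 sat near Epcam (medians 974 and 922), Ciita was at a median of 3.23, and Ptprc, Csf1r and Itgax were at medians of 1.12, 0.15 and 0.31.

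The genes whose pattern was most like that of H2-Aa, H2-Ab1, H2-Eb1 and Cd74 (highest Pearson correlation with the mean of their standardized log2 CPM over 14 libraries) were the class I genes H2-T22 (0.88) and H2-Q7 (0.86), the peptide transporter Tap1 (0.86), which loads class I, and the low-count genes snoU83B (0.87, at most 22 counts) and Npb (0.86, at most 15 counts). H2-T22, H2-Q7 and Tap1 lie in the H2 region of chromosome 17, as do 5 of the members. Upp1 (0.85) came next, followed by C1qa (0.84), a complement gene of macrophages with 0 to 76 counts. C1qa was named after its values were seen. Csf1r, from the same marker list, went the other way at one end. It was highest in the library labelled KO water replicate 2 (1.91 CPM), where Cd74 was lowest (433 CPM). In the same ranking Irf1 stood at 0.69 and Socs1 at 0.67, whereas Rfx5 was at -0.07 and Creb1 at -0.61.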

How the data were processed

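The authors deposited raw gene counts, whole numbers per Ensembl gene, for 14 bulk RNA-seq libraries; the submitters' processing notes name HISAT2, featureCounts and mm9, and strand use in counting is not given in the sources used here. IDs were matched to GENCODE M1 (mm9): 37310 of 37680 had a symbol. The 7 genes and all gene lists were chosen with earlier results of these data known. The 15127 genes that reached 10 counts in 3 or more libraries were fitted with edgeR 4.0.16 (R 4.3.3): TMM factors, 1 mean per group over all 14 libraries, quasi-likelihood F test, Benjamini-Hochberg adjustment over all genes tested, called at an adjusted p of 0.05. SE is the log2 fold change divided by the square root of F. The fit was tested on simulated data. CPM are counts per 1000000 of the TMM-scaled total, divided by exon length for comparison between genes. Group spreads are SD. With 12882827 to 26087231 counts per library, counting error is small beside the spread between libraries for all members but the intronic Ciita model. Named were the 7 genes, list genes that were called or define a cell type, and the 5 genes most like the class II pattern. Alternatives were DESeq2 1.42.0, other scalings and filters, blocks, a mitochondrial covariate and leaving out libraries, 2 of these chosen after seeing the data. Igha, 1 of 12 B and plasma cell markers listed, had no match. Promoter letters came from RefSeq windows, and transcripts were aligned with Biopython 1.88. The promoters of H2-Ab1, Ciita and Cd74 were not analysed here. Values of 1 gene of the interferon gamma list are not reported here.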

Additional observations from a re-analysis of the deposited data

Results flagged for a closer look

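H2-DMb2 stood out in a single library of each water group: 19.8 CPM in WT water replicate 2, where the other 3 WT water libraries were at 0 to 2.89, and 6.75 CPM in the library labelled Smad4 KO water replicate 3, where the other 3 were at 0 to 0.267. In each case the gap to the nearest library took a larger share of the group's range (0.854 and 0.96) than Dixon's 95% critical value for 4 libraries. Of 18 groups examined (9 rows, 2 groups of 4 libraries each) these were the 2 that passed, and chance alone passes about 1 group in 20. Neither library stood apart in this way for any of the 7 genes. The groups of 3 libraries were not examined.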

How the results depend on the processing

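Called members stayed at 0 in each comparison except as follows. For DSS in WT, 1 row (Ciita) was called by DESeq2 on all libraries (adjusted p = 0.0111), DESeq2 on the 2 groups only (0.00127) and edgeR with no filter on low counts (0.0395), and leaving out 1 library gave 0 to 1 (Ciita without the library labelled KO water replicate 4, adjusted p = 0.0435); over the 26 alternatives its adjusted p ran up to 0.843. For KO against WT on water, leaving out 1 library gave 0 to 2. The 2 came without KO water replicate 4, where 4104 genes were called in all. The cause was not tested. Of 1000 log2 fold changes of the 8 rows under alternatives, 959 kept direction and side of the threshold, 6 gained a call and 35 reversed. With the replicate block, H2-Ab1 with DSS in KO was 0.366 and H2-Eb1 in the difference of responses 0.0779. Under the name prefix block, DSS in WT was -0.0163 for H2-Aa and -0.158 for H2-Eb1, DSS in KO was -0.0269 for Cd74, and the difference of responses was 0.34 for H2-Aa, 0.248 for H2-Eb1, 0.183 for Ciita and 0.0231 for H2-DMa. With the mitochondrial covariate H2-Ab1 with DSS in KO was 0.309. Within prefix D, DSS in WT was -0.00858 for H2-Aa and -0.156 for H2-Eb1; no KO water library has this prefix, so the comparisons on KO water could not be fitted there. Without the 5 libraries high in H2-DMb2, an alternative chosen after seeing the data, H2-Ab1 with DSS in KO was 0.147 and the difference of responses for H2-Aa 0.26.

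Leaving out 1 library at a time turned the direction in these cases, given as lowest and highest. For KO against WT on water the ranges were -0.951 to 0.0749 (H2-Ab1), -0.453 to 0.166 (Ciita) and -0.538 to 0.26 (H2-DMb1). For DSS in KO they were -0.0602 to 0.95 (H2-Aa), -0.352 to 0.562 (H2-Ab1), -0.102 to 0.643 (H2-DMa) and -0.067 to 0.653 (H2-DMb1). For the difference of responses they were -0.783 to 0.382 (H2-Aa), -0.425 to 0.36 (H2-Eb1), -0.588 to 0.0372 (Cd74), -0.606 to 0.0127 (Ciita) and -0.576 to 0.157 (H2-DMa). KO against WT after DSS kept its sign in 208 of 208 values over all alternatives, not only those that left out 1 library. These values come from refits of the same libraries and are not independent of each other.

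Counts of called genes over the whole table moved by more than 1.5 times under many alternatives: from 2 to between 0 and 492 for KO against WT after DSS, from 1276 to between 1 and 4104 on water, from 0 to between 0 and 1696 for DSS in WT, from 10 to between 1 and 70 for DSS in KO and from 1 to between 1 and 8 for the difference of responses. Same-numbered libraries were not treated as pairs, and the labels do not say whether they were. Of 19 such pairs, 2 had correlated deviations over 0.1, and 3 of 14 libraries correlated best with their own number. WT water and KO water replicate 4 had the highest value, 0.348, against at most 0.209 in 54 pairs with other numbers. Such correlations cannot settle whether libraries were paired. The replicate block called 2, 2977, 0, 6 and 1 genes in the same order. CPM without TMM factors moved 2 of 32 group means by 1 SD or more. Between 3 and 4 libraries a group, and not depth, limited the precision for all rows but the intronic Ciita model.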
